A study of Mus musculus with 4 samples.

Results

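Gene deserts are long stretches of sequence without protein-coding genes. CTCF regions in gene deserts were taken from 2 deposited lists of CTCF peaks in mouse cardiac myocytes. A region on chromosomes 1 to 19 was a member when its summit lay more than 100 kb from the span of every protein-coding gene and more than 1 kb from every start and end of a long non-coding RNA (lncRNA) gene. Of 19701 control regions on these chromosomes 771 were members, and of 15814 regions in the list labelled CTCF knockout 654 were members. Over all chromosomes the lists held 20043 and 16128 regions. The source was left ventricular cardiac myocytes of C57BL/6 mice, in which DNA bound by CTCF was pulled down with an antibody and sequenced (ChIP-seq). Each genotype, control or CTCF knockout, gave 1 such library from the pooled myocytes of 3 hearts. The labels give neither the knockout allele, a Cre driver nor the age of the mice. The input libraries were not analysed here. Peak lists hold no expression values, so neither the cell type nor the loss of CTCF could be checked from them, and read depth is unknown. Pooling leaves 1 library on each side and no replicates, so values compare those 2 libraries and carry no p-value. All intervals below are 95% intervals that cover counting error only.

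CTCF is a zinc-finger protein that binds a long DNA motif and holds the cohesin complex at the bases of chromatin loops. Its sites mark many borders between chromatin domains and can keep an enhancer from acting on the wrong promoter. Gene deserts often flank genes for developmental transcription factors and can hold enhancers that act over long distances. Regions of both lists were compared by overlap of at least 1 bp, and a region with such an overlap is described as called in both lists.

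The sequences of 2 members can be shown, because their summits fall in RefSeq promoter windows of GRCm38.p6, the assembly called mm10. Each window holds 250 bases before and 50 bases after an annotated start. Both windows belong to starts inside lncRNA genes, so that the rule on lncRNA gene ends left them among the members. They are shown because both members were called in both lists and hold a CTCF-like stretch next to the summit. The CTCF core searched for was CCA, any 2 bases, AG, any 2 bases and GGC, on both strands. The capitals mark the first 10 positions of that core, which end after the first G of GGC, and both windows are printed 5′ to 3′ on the strand of the transcript.
Mir100hg: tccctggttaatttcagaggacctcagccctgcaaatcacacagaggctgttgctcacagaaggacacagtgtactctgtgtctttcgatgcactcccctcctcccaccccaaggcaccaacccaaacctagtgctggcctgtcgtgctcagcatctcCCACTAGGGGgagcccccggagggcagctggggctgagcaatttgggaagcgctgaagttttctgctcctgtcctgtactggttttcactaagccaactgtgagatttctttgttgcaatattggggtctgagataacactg
Gm38542: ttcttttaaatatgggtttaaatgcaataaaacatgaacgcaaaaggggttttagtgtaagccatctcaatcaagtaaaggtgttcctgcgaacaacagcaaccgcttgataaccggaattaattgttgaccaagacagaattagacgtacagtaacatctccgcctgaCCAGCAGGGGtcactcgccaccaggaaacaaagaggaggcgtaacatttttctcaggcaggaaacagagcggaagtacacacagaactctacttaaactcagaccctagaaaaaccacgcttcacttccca
The Mir100hg window is chr9:41474643-41474942 on the plus strand, and the Gm38542 window is chr3:78919584-78919883 on the minus strand. Mir100hg is the lncRNA that hosts the microRNA Mir100. Its control region, chr9:41474586-41475028, had a fold enrichment of 11.2, and the overlapping region in the list labelled CTCF knockout had 7.75. In the Mir100hg window the capitals stand at bases 159 to 168, and the summits fell at base 186 in the control and base 193 in the other list. In the Gm38542 window the capitals stand at bases 170 to 179, with summits at bases 196 and 200, and the fold enrichments were 8.09 in the control and 9.08 in the other list. In both windows the summits of both libraries lay 3′ of the marked letters. The full core of 12 positions occurs in neither window and in 2.43% of all 32851 promoter windows. The shorter form of 10 positions was chosen after these sequences had been seen and occurs in 20.04% of the windows, so its presence is a description only.

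Before the results, 1 set of members stood apart. The deposited fold enrichment and p-value of each region were solved for the read pileup at the summit and the local background, in reads. Most members lay on a low background, with a median of 1.05 reads in the control, but 47 of the 771 control members and 55 of the 654 in the other list had a background of 10 reads or more. In the control these regions made up 6.10% of the members, 0.676% of all other autosomal regions and 25.9% of the bases covered by members. Their median pileup was 204 reads and their median fold enrichment 3.21, so that they combined a tall pileup with a low ratio. Of the 47, 45 were called in both lists (95.7%, interval 85.8 to 98.8), against 69.1% of all autosomal control regions. Outside deserts, control regions with such a background were called in both lists in 82 of 128 cases (64.1%, 55.5 to 71.9). The high share was thus not shared by high-background regions elsewhere.

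The largest block of such regions was the start of chromosome 9. There, 18 control members filled 36342 of 38373 bases at chr9:2999964-3038336, more than 300 kb from Alkbh8, the nearest protein-coding gene. All 18 were called in both lists, and the other list held 21 regions in the same stretch. Pileups in this block ran from 164 to 268 reads over a background of 64.3 to 71.7 reads, and fold enrichments from 2.53 to 3.70. A further 4 lay at chr2:98662191-98667370 in the desert between Lrrc4c and Iftap, with pileups of 182 to 272 reads. Whether these regions are bound by CTCF was not tested. Results are therefore given for all members and for members with a background under 10 reads, a limit chosen after the data had been seen.

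**Figure D1:**
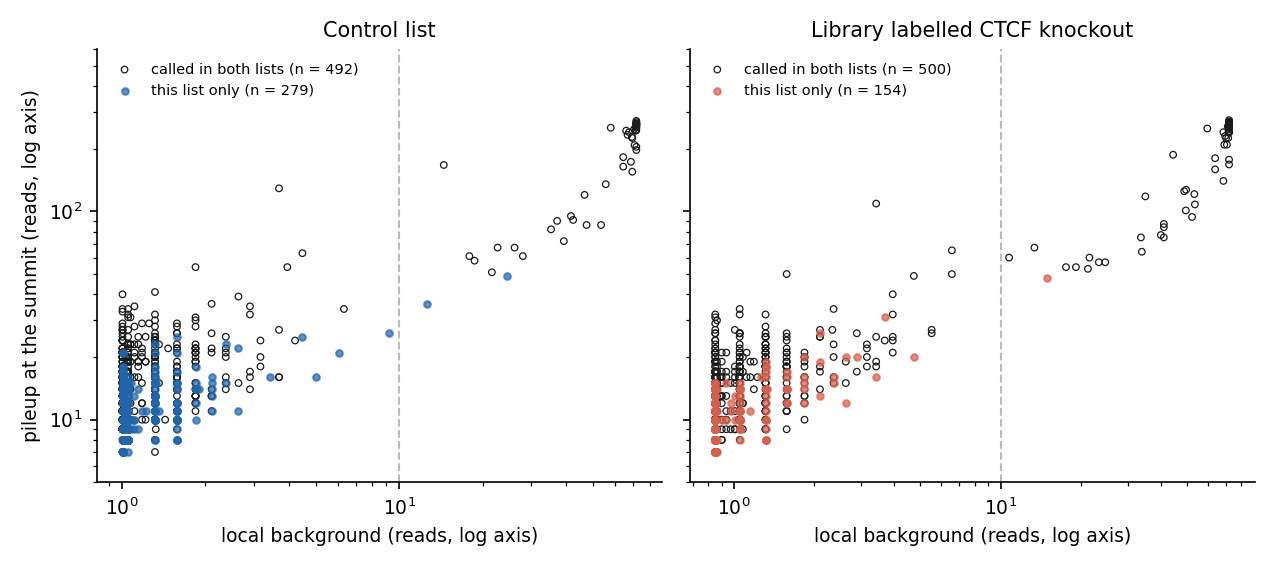
Pileup at the summit against local background, in reads on log axes, for each desert member of the control list (left) and of the list labelled CTCF knockout (right). Open black points were called in both lists and filled points in that list only. The dashed line at 10 reads parts off the 47 control members and 55 members of the other list with a high background, which are nearly all open points.

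The first question was how densely CTCF occupies deserts in cardiac myocytes. Deserts held few CTCF regions. The 1376 deserts between 2 protein-coding genes spanned 646 Mb beyond the limits of the rule, 26.9% of the sequence between the first and last gene of each chromosome. Yet members were 3.91% of control regions and 4.14% of those in the other list. These shares include 35 control and 36 other-list members beyond the first or last gene, which the densities leave out. The control density was 1.14 regions per Mb in deserts (interval 1.06 to 1.23) and 10.8 per Mb in all other sequence (10.6 to 10.9), a ratio of 9.46. In the list labelled CTCF knockout the densities were 0.957 and 8.64 per Mb, a ratio of 9.02. Mappability was not analysed here, so unread sequence within deserts counts as empty.

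Outside genes, control density fell with distance from the nearest protein-coding gene up to 1000 kb. Control regions with a low background numbered 19.7 per Mb within 10 kb of a gene and 8.69 per Mb from 10 to 50 kb. They numbered 4.07 per Mb from 50 to 100 kb, and 2.14 per Mb (1.94 to 2.35) in the first stretch that counts as desert, from 100 to 200 kb. Further out the density was 1.27 per Mb from 200 to 300 kb and 0.760 per Mb from 300 to 500 kb. It was 0.289 per Mb (0.206 to 0.396) from 500 to 1000 kb and 0.199 per Mb (0.106 to 0.340) beyond 1000 kb. The last 2 intervals overlap, while each of the earlier steps was larger than its intervals. Longer deserts were emptier as well. The density for all control members was 2.90 per Mb in deserts of up to 500 kb, 1.59 in those of 500 to 1000 kb, 0.762 in those of 1000 to 2000 kb and 0.376 in longer ones.

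The decline differed between regions called in both lists and regions of 1 list. Low-background regions called in both lists were 1.36 per Mb at 100 to 200 kb and 0.140 per Mb beyond 500 kb, a ratio of 9.72 (6.58 to 14.3). Control-only regions went from 0.780 to 0.120 per Mb, a ratio of 6.51 (4.23 to 10.0). Regions found only in the list labelled CTCF knockout went from 0.367 to 0.125 per Mb, a ratio of 2.94 (1.86 to 4.63). The interval of the last ratio lies wholly below that of the regions called in both lists and overlaps slightly with that of the control-only regions. Beyond 500 kb the 3 kinds were about equally rare.

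**Figure D2:**
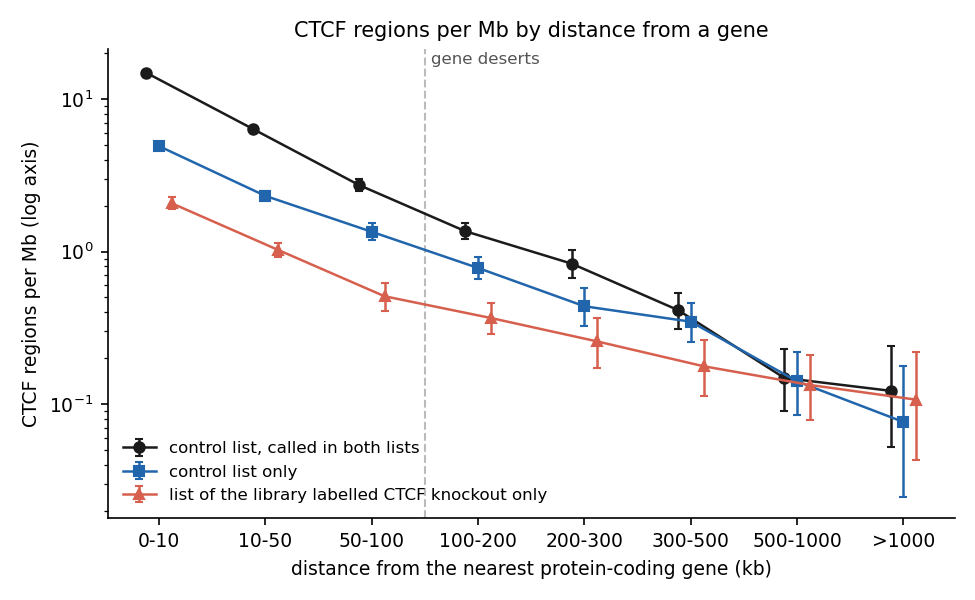
CTCF regions per Mb, on a log axis, by distance from the nearest protein-coding gene in kb, for regions with a background under 10 reads, with exact Poisson 95% intervals. Black circles are control regions called in both lists, blue squares control-only regions and red triangles regions only in the list labelled CTCF knockout. Within deserts the black points fall from 1.36 to 0.122 per Mb and the red ones from 0.367 to 0.107.

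The second question was how many desert regions of the control were also called in the library labelled CTCF knockout. This was so for 492 of 771 members (63.8%, interval 60.4 to 67.1), against 69.1% of all autosomal control regions. Compared with the 18930 regions outside deserts, of which 69.3% were called in both lists, the difference was -5.48 percentage points (-9.00 to -2.10). When 50% of both regions had to overlap it was -3.00 points, with an interval of -6.59 to 0.525 that holds 0. The share was 65.5% of 4323 regions at gene ends, which lies within the interval of the desert members, and 67.5% of 7837 in gene bodies. It was highest, 73.8% of 6770, between genes but within 100 kb of a gene, and the difference of deserts from them was -10.03 points (-13.6 to -6.55). With low-background members alone the share was 447 of 724 (61.7%, 58.1 to 65.2), and the difference from other low-background regions was -7.59 (-11.2 to -4.06).

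Desert regions were also weaker than other regions. The median fold enrichment was 6.23 in control desert regions (5.98 to 6.47) and 6.99 in all others (6.98 to 7.11). When other regions were weighted to the same fold enrichment as the desert regions, the difference was 1.40 points (-2.05 to 4.86), and at equal pileup it was -0.816 points (-4.27 to 2.63). With low-background regions these differences were -2.19 (-5.79 to 1.41) and -1.39 (-4.99 to 2.21). All 4 intervals hold 0 and allow a desert share from 5.79 points lower to 4.86 points higher. Against regions between genes within 100 kb, the difference of all members was -2.72 (-6.31 to 0.859) at equal fold enrichment and -3.50 (-7.06 to 0.0537) at equal pileup, and both intervals hold 0. For low-background members alone these differences were -5.84 (-9.56 to -2.13) and -4.07 (-7.78 to -0.364).

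Among desert members, regions called in both lists were stronger than control-only regions. Their median fold enrichment was 6.98 (6.59 to 7.40) against 5.48 (5.36 to 5.61), their median pileup 17 against 11 reads, and their median width 228 against 167 bp. All control regions were parted by fold enrichment into 5 classes of near equal size. In the weakest class the share called in both lists was 110 of 218 desert members (50.5%) against 34.1% elsewhere. In the next it was 91 of 185 (49.2%) against 52.5%, so the share did not rise over the first 2 classes in deserts. In the middle class it was 90 of 144 (62.5%, 54.4 to 69.99) against 71.9%, in the fourth class 110 of 130 (84.6%) against 88.1%, and in the strongest class 91 of 94 (96.8%, 91.0 to 98.9) against 97.7%. The value outside deserts lies within the interval of the desert members in the strongest class and above it in the middle class. With their low ratios, regions of high background fall mostly into the weakest class. Of the 47 in deserts 45 were called in both lists, which raises the desert share of that class. The classes were not recomputed without them.

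**Figure D3:**
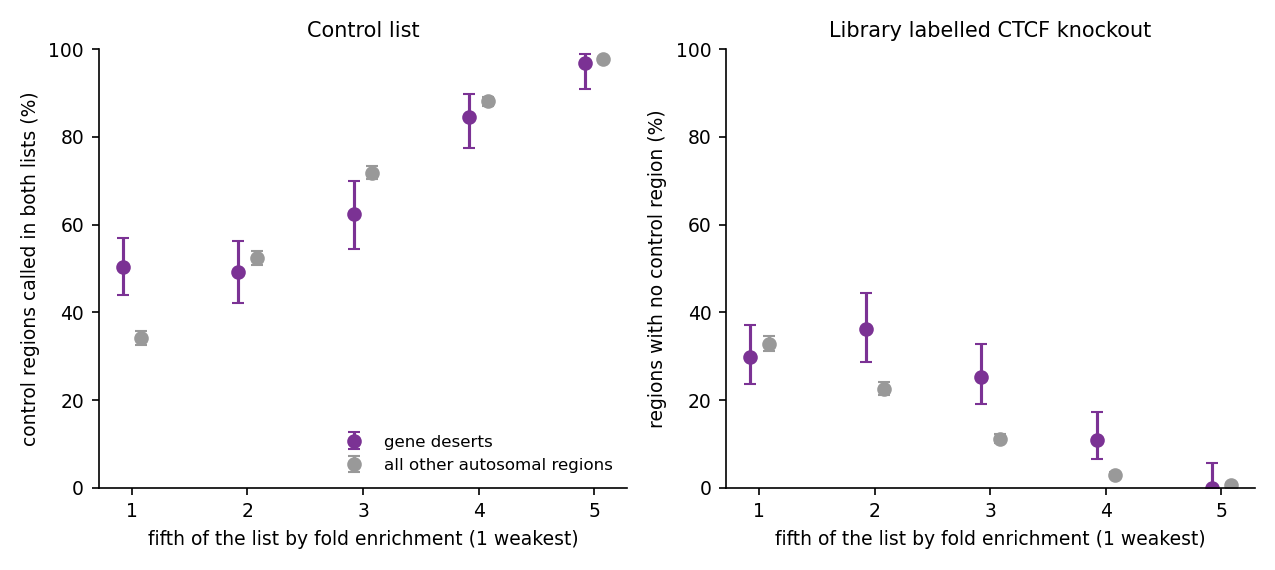
Share of regions in 5 classes of each list by fold enrichment, from weakest (1) to strongest (5), in percent with Wilson 95% intervals, for desert members (purple) and all other autosomal regions (grey). Left, control regions called in both lists, where the strongest class reaches 96.8% in deserts. Right, regions of the list labelled CTCF knockout with no control region, where purple points lie above grey ones in classes 2 to 4 and the share is 0 of 63 in class 5.

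The reverse comparison asked which regions of the list labelled CTCF knockout had no control counterpart, and there deserts stood above other sequence. In the list labelled CTCF knockout 154 of 654 desert members overlapped no control region (23.5%, interval 20.5 to 26.9), against 13.9% of all its autosomal regions. The share outside deserts was 13.5% of 15160, and the difference was 10.1 points (6.92 to 13.5). Matching on fold enrichment left a difference of 6.67 points (3.35 to 9.98), and matching on pileup 8.26 points (4.95 to 11.6). With low-background regions the share was 153 of 599 (25.5%), and the matched differences were 10.0 points (6.48 to 13.6) and 9.66 points (6.12 to 13.2). All of these intervals lie above 0.

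The share moved with distance from genes. Between genes it was 12.1% within 10 kb of a gene, 13.8% from 10 to 50 kb and 15.8% from 50 to 100 kb, for low-background regions away from lncRNA ends. Within deserts it was 71 of 335 (21.2%, 17.2 to 25.9) from 100 to 200 kb, 32 of 130 (24.6%) from 200 to 300 kb and 25 of 81 (30.9%) from 300 to 500 kb. From 500 to 1000 kb it was 18 of 38 (47.4%, 32.5 to 62.7), and beyond 1000 kb 7 of 15 (46.7%, 24.8 to 69.9). Members over 500 kb from a gene exceeded those at 100 to 200 kb by 26.0 points (12.4 to 39.8). The difference was 22.5 points (10.0 to 35.5) with the high-background members, 20.9 points (6.44 to 35.4) at matched fold enrichment and 26.6 points (12.5 to 40.7) at matched pileup. The share of control regions called in both lists was 63.5% at 100 to 200 kb and 52.8% (28 of 53) beyond 500 kb, a difference of -10.7 points whose interval, -24.6 to 2.97, holds 0.

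**Figure D4:**
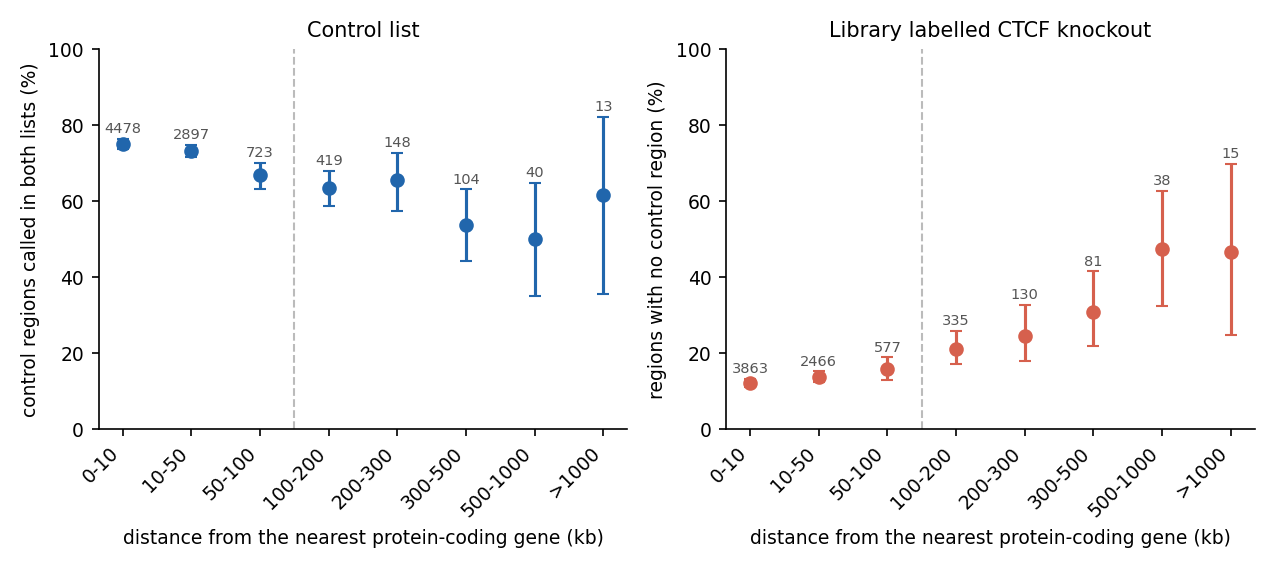
Share of regions by distance from the nearest protein-coding gene in kb, in percent with Wilson 95% intervals, for regions with a background under 10 reads. The number of regions stands above each point, and the dashed line marks the start of deserts. Left, control regions called in both lists; right, regions of the list labelled CTCF knockout with no control region, which go from 12.1% next to genes to 47.4% at 500 to 1000 kb.

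The 25 low-background members over 500 kb from a gene and only in the list labelled CTCF knockout lay in 25 different deserts on 14 chromosomes, 13 of which held no control member at all. Their median fold enrichment was 6.45 (range 3.58 to 8.21), close to the 6.06 of the 28 far members called in both lists (range 4.53 to 10.8), but their median pileup was 12 reads against 17. The nearest control summit was a median of 754 kb away for the 25, and as near as 13.2 kb for the region between Ets1 and Kirrel3 and 37.1 kb for that between Gm33989 and Vstm2b. Of the 25, 1 lies in the antigen receptor locus Igh, between Adam6a and Zfp386, with a fold enrichment of 7.02 and 12 reads. The strongest lay at chr15:62686746-62686965 between Myc, the growth regulator, and Gsdmc, with a fold enrichment of 8.21 and 18 reads. Others at 8.10 and 14 reads each lay between Gbe1 and Robo1, an axon guidance receptor, and between Nxph1 and Ndufa4. These 6 were named after their values had been seen.

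Most deserts held no control member, and in those with several often only some were called in both lists. Regions within 100 kb of a protein-coding gene or 1 kb of a lncRNA end are not members. A desert without members can therefore still hold CTCF regions near its edges or at lncRNA ends. Desert lengths count the whole stretch between the 2 genes. Of the 1376 deserts between genes 920 had no control member, 456 had at least 1, 166 at least 2 and 6 at least 5. In 225 of the 456 every control member was called in both lists, in 134 none was, and in 97 some were. Deserts with 1 control member can only fall under every or none. Of the 166 with at least 2, every member was called in both lists in 55, none in 14 and some in 97. The other list had members in 57 deserts that had none in the control. Of 72 deserts over 2 Mb long, 30 held no control member and 22 held none in either list. The longest desert, 4542 kb between the protocadherin genes Pcdh20 and Pcdh9 on chromosome 14, held 2 control members, 1 of them of high background, and 1 in the other list. The next but one, between Olfm4 and Pcdh17 (4420 kb), held 1 control and 3 other-list members. Some of the longest deserts held none in either list. These lay between the adhesion genes Cntnap5b and Cdh20 (4278 kb), between Slc39a10 and Tmeff2 (3975 kb) and between the repressor gene Zeb2 and the activin receptor gene Acvr2a (3697 kb). Others of similar length held members. The desert between Celf4 and Pik3c3 (4511 kb) held 2 control members and 1 in the other list. That between Tenm3 and Aga (3989 kb) held 1 in each list, and that between Dsel and Cntnap5a (3820 kb) 1 and 2. Between Lrrc4c and Iftap (3929 kb) there were 6 and 5, with 4 of the 6 of high background. Of 27 deserts over 3 Mb long, 9 held no control member.

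The strongest desert regions were called in both libraries. The highest fold enrichment, 27.7 with a pileup of 129 reads, was at chr8:20122070-20122487 between 9530057J20Rik and Gm15319, and the overlapping region in the other list had 24.9 and 109 reads. Between Npvf, a neuropeptide precursor, and Gm38821 the control value was 20.4 and the other 19.8, at chr6:50937182-50937512 inside the lncRNA Gm31686. Between the forkhead factor gene Foxo1 and Cog6, at chr3:52844049-52844536, the values were 19.3 and 13.2. Each fold enrichment is the authors' value within its own list, and no direction is read from such pairs.

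A further 7 made up the 10 strongest called in both lists. At chr10:99615855-99616165, between the phosphatase gene Dusp6 and Csl, the fold enrichment was 17.4 in the control and 17.3 in the other list. At chr1:184235606-184235938, between Dusp10, which encodes another such phosphatase, and the homeobox gene Hlx, it was 17.1 and 7.37. At chr17:84028609-84029006, between Haao and Zfp36l2, which encodes an RNA-binding protein, it was 16.1 and 8.65. At chr4:89524647-89525143, between the cell cycle inhibitor gene Cdkn2b and Dmrta1, it was 15.6 and 11.9. Those between Bod1l and Gm46911, Fut8 and Gm6657, and Ccdc54 and Cblb had control values of 18.1, 17.04 and 16.9. All 10 had pileups of at least 31 reads in the control and 17 or more in the other list.

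No control-only desert region was as strong as these. The 2 highest had a fold enrichment of 10.97 and 21 reads each. The first, at chr3:50906084-50906442, lies between Slc7a11, which encodes a cystine transporter, and Noct, 318 kb from the nearer gene, and the nearest other control summit was 216 kb away. The second, at chr7:68580710-68581028, lies between Fam169b and Arrdc4, 0.969 kb from another control summit. Next came regions between Thap1 and Zfp703 (10.4, 23 reads), between Lratd1 and Trib2 (10.1, 25 reads) and between the homeobox gene Pitx1 and Macroh2a1 (9.49, 21 reads). Regions between Tbc1d5 and Satb1, a chromatin organiser gene, and between Mbd2 and the netrin receptor gene Dcc had 9.47 each. A region between Mn1 and Cryba4 had 8.97 with 17 reads. The 10 strongest control-only regions had pileups of 17 to 25 reads in a list whose desert members called in both had a median of 17.

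Regions found only in the list labelled CTCF knockout had a median fold enrichment of 5.85 and a median pileup of 11 reads. The strongest, at chr4:66631238-66631462 between Astn2 and the innate immune receptor gene Tlr4, had a fold enrichment of 8.70 and 26 reads. Regions between Hmga2 and Msrb3, between the endothelin receptor gene Ednrb and Pou4f1, and between Cyyr1 and Adamts1 had 8.64 and 15 reads each. Another, at chr14:17402772-17403186 between the retinoic acid receptor gene Rarb and the thyroid hormone receptor gene Thrb, had 8.64 and 19 reads. In the strongest of the 5 classes of that list 0 of 63 desert members lacked a control region, with a Wilson upper limit of 5.75%, against 0.708% of other regions.

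The deserts richest in low-background regions showed mixed outcomes. The desert of 813 kb between Matn1, a cartilage matrix gene, and Ptpru, a receptor phosphatase gene, held 7 control members, 4 of them called in both lists. There the 3 highest, with fold enrichments of 11.2, 10.97 and 8.97, were called in both, while those with 4.99, 4.87 and 4.65 were not and 1 with 4.22 was. Between Camk1g and the semaphorin receptor gene Plxna2, 4 of 5 were called in both lists, with control values of 4.50 to 9.32. Between Usp25 and Cxadr, which encodes the coxsackievirus and adenovirus receptor of cardiac cell junctions, 2 of 5 were. They were the 2 strongest, at 11.2 and 7.48. Between Sall1 and Tox3, 2 of 5 were, at 12.1 and 7.77, and another with 7.48 was control-only. Within these deserts the regions called again were mostly those with the higher control values. The exceptions were the region of 4.22 beside Matn1 and that of 4.50 beside Camk1g, which were called in both lists while regions of 4.99 and 5.41 in the same deserts were not.

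A few members of the rule's set lie in antigen receptor loci, which the gene table does not list as protein-coding. The label gene desert therefore does not hold for them. They numbered 15 of the 771 control members, of which 8 were called in both lists. The desert between Gm36448 and Dad1 on chromosome 14, which holds the T cell receptor loci Tcra and Tcrd, had 11 control members, more than any other between 2 genes, and all on a low background. Of these 5 were called in both lists, and the other list had 6 regions there. The pair nearest Dad1, at chr14:54059842-54060041 and chr14:54064658-54064825, had control values of 4.75 and 7.92 and other-list values of 6.83 and 8.29. The 3 farthest from Dad1 had 6.98, 8.47 and 6.04 and were control-only. Their successive summits were 151 and 149 kb apart, and those of regions 4 and 5, counted from Gm36448, 151 kb, while the other steps ran from 2.05 to 288 kb. Variable gene segments of this locus include near-identical copies, so single values there are uncertain. In the immunoglobulin kappa locus (Igk) 2 of 3 control members were called in both lists, and the 1 in the T cell receptor beta locus (Tcrb) was too. In the heavy chain locus (Igh) the list labelled CTCF knockout had 2 members and the control none. These loci were singled out after their values had been seen.

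**Figure D5:**
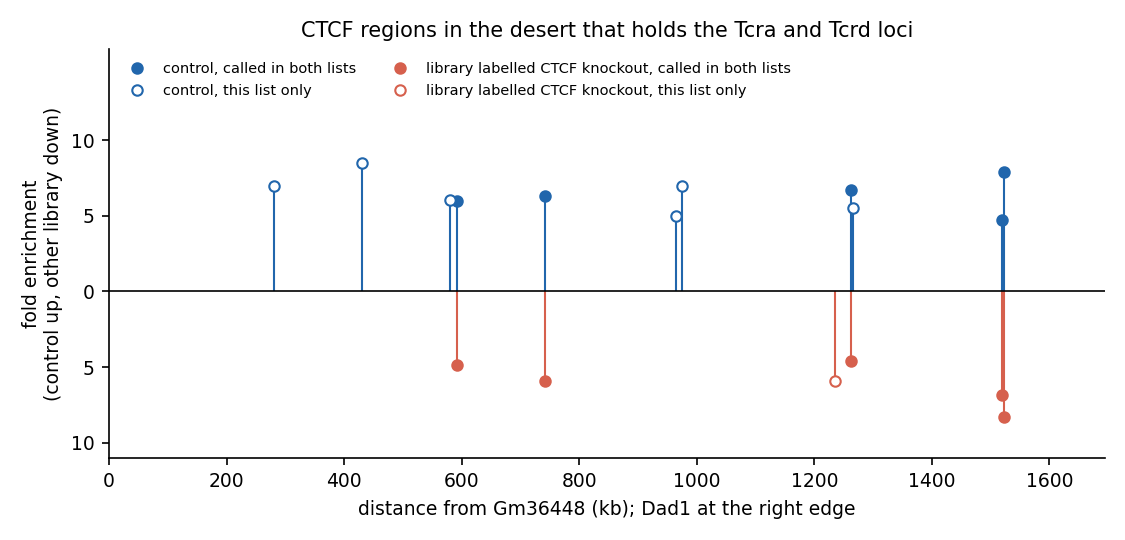
Fold enrichment of the 11 control regions (upward) and the 6 regions of the library labelled CTCF knockout (downward) in the desert that holds Tcra and Tcrd, by distance from Gm36448 in kb. Filled points were called in both lists and open points in that list only. The control regions farthest left are all open, and the pair nearest Dad1 is filled in both lists.

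The genes that border deserts were grouped by 4 lists. Deserts bordered by developmental regulators held 76 control members, 47 of them called in both lists (61.8%, 50.6 to 71.9), beside 63.8% for all deserts. Their control density was 1.42 per Mb (1.12 to 1.78), beside 1.14 per Mb for all deserts. Deserts bordered by cardiac regulators and heart muscle genes held 30, of which 20 were called in both (66.7%, 48.8 to 80.8), at 1.36 per Mb (0.919 to 1.95). Deserts bordered by neuronal adhesion and synapse genes held 83, of which 48 were called in both (57.8%, 47.1 to 67.9), at 0.459 per Mb (0.365 to 0.569). Deserts next to olfactory and vomeronasal receptor genes held 6, of which 3 were called in both. The intervals of the first 3 shares thus overlap. The density intervals of the first 2 lists hold the 1.14 per Mb of all deserts, and the density beside neuronal genes lies below both. The counted sequence was 181 Mb for 156 neuronal deserts, 53.4 Mb for 92 developmental and 22.0 Mb for 41 cardiac ones. Longer deserts had lower densities among all deserts, and the part of desert length in these densities was not tested. High-background members numbered 8 beside neuronal genes, 2 beside cardiac genes and 0 beside developmental regulators.

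Regions without a control counterpart were spread unevenly over the lists. They were 1 of 21 beside cardiac genes (4.76%, 0.846 to 22.7), 11 of 59 beside developmental regulators (18.6%) and 27 of 75 beside neuronal genes (36.0%, 26.1 to 47.3), beside 23.5% for all deserts. The intervals beside cardiac and neuronal genes do not overlap, and no test of the lists was made. Members beside neuronal genes lay farther out, at a median of 390 kb from a gene against 190 kb for all members of the list labelled CTCF knockout. The median was 239 kb beside developmental regulators and 164 kb beside cardiac genes. Over 200 kb from a gene the share was 23 of 59 (39.0%) beside neuronal genes and 27.5% of all 302 members, and at 100 to 200 kb it was 4 of 16 against 20.2%. Beside developmental regulators it was 8 of 35 over 200 kb and 3 of 24 at 100 to 200 kb, below all members at both distances. Beside cardiac genes it was 1 of 8 and 0 of 13. The part of distance in the shares of these lists was not tested further.

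Among developmental genes, Bmp4, which encodes a bone morphogenetic protein, had 5 control members in its bordering deserts, 4 of them called in both lists. Sall1, a zinc-finger factor gene, had 5, with 2 called in both, and the Iroquois gene Irx1 had 4, with 2 called in both. Among cardiac genes, the homeobox gene Meis1 had 4 members with 3 called in both. Isl1, a marker of cardiac progenitors, had 3 with all 3 called in both, 1 of them of high background. Both members beside Gata6, a cardiac transcription factor gene, were control-only. Among neuronal genes, Lrrc4c had 6 members with 5 called in both, but 4 of these form the high-background block described above. Dcc had 4 with 2 called in both, and Epha6, an ephrin receptor gene, had 4 with 2.

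Desert regions were isolated from each other. The median distance to the nearest other region of the same list was 90.6 kb (80.3 to 108) for control members and 14.1 kb (13.6 to 14.5) for other control regions. In 48.1% of members, against 8.46% of other regions, it was over 100 kb. The most isolated low-background member of the control, between Olfm4 and Pcdh17, was 3210 kb from the next region. Isolation did not follow the outcome in order. Low-background members within 10 kb of another region were called in both lists in 69 of 120 cases (57.5%, 48.6 to 66.0), those at 10 to 100 kb in 172 of 246 (69.9%, 63.9 to 75.3) and those over 100 kb in 206 of 358 (57.5%, 52.4 to 62.6).

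The summits of the 492 pairs lay a median of 22 bp apart, and 79.1% within 50 bp, against 26 bp and 77.9% for other shared regions. Pairing by overlap of narrow regions keeps these distances short. Across the 447 low-background pairs Spearman's rho of the 2 fold enrichments was 0.416, as a description, since all pairs come from the same 2 libraries. Control-only members, which by definition overlap no region of the other list, were rarely near one of its summits. Their nearest summit there was a median of 155 kb away, and within 1 kb for 11 of 279. For regions only in the other list the nearest control summit was a median of 161 kb away, and within 1 kb for 10 of 154. Regions are sparse in deserts. Within the same list the nearest region was a median of 90.6 kb away for control members and 103 kb for members of the other list. The distances between lists have no value from outside deserts beside them.

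The rule keeps members away from protein-coding genes and lncRNA ends, but other annotation may lie near them. Of the control members 144 (18.7%) lay inside a lncRNA gene, and 486 (63.0%) had no entry of the gene table of any kind within 10 kb. Low-background members inside lncRNA genes were called in both lists in 85 of 142 cases (59.9%) and those outside in 362 of 582 (62.2%), a difference of -2.34 points whose interval, -11.4 to 6.34, holds 0. The member farthest from a protein-coding gene, 2102 kb from Pcdh9, was of high background. The farthest on a low background, at chr2:99732556-99732691, was 1828 kb from Iftap, had a fold enrichment of 4.49 with 8 reads and was control-only. Just inside the limit, from 100 to 110 kb, 52 of 80 control regions (65.0%) were called in both lists, and just outside it, from 90 to 100 kb, 62 of 89 (69.7%). Over chromosomes the share ran from 42.9% of 35 members on chromosome 5 to 78.7% of 61 on chromosome 9, which holds the block of 18.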

How the data were processed

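The authors deposited 1 list of CTCF peaks for each library. The submitters' processing notes name MACS2, SAMtools 0.1.19, Bowtie2 2.2.6 and the build mm10, without peak thresholds. The deposited lists give for every region its summit, its fold enrichment (a ratio to local background), the −log10 of p and of q, and a score. Read depth is not among these values. Pileup and background were recovered from fold enrichment and −log10 p, within 0.001 for 100% of regions; the lowest backgrounds were 1.01 reads in the control and 0.851 in the other list, a ratio of 0.846. The score was not used.

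Gene positions were those of RefSeq (GRCm38.p6). The 105 protein-coding entries that end below the first deposited region, at base 2999964, were left out; this changed 0 members. Shares have Wilson intervals, densities exact Poisson intervals and medians order-statistic intervals. Unmatched differences have Newcombe intervals, and matched differences have normal approximations. Ratios of densities have normal intervals on the log scale. All of these are at 95%. Matched differences weight the other regions to the members over 10 bins of fold enrichment or single pileups, pooled above 40 reads; those between far and near members use 5 bins. A desert is named by its bordering protein-coding genes. Regions were named by rank: the 10 strongest called in both lists, the 10 strongest control-only, the 5 strongest of the other list only, the farthest, and deserts by length and number of members. A few of the items so ranked are not reported here. Members, lists and rules were chosen with earlier results of these data known. Scripts were checked on simulated data and run with Python 3.11.15, numpy 2.4.6, pandas 2.3.3 and scipy 1.17.1.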

Additional observations from a re-analysis of the deposited data

How the results depend on the processing

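For 9 results, 128 values were recomputed under alternatives, 49 of them under choices made after seeing the data. Of these values 104 stayed within the counting interval of the reported value or, for the number of members, within 1.5 times. A further 23 moved outside it and 1 reversed its sign. The 104 include 19 values for each of 2 differences that left out 1 chromosome at a time, a small change that moved none of them. The desert share called in both lists (63.8%) was 56.9% with a reciprocal overlap of at least 50% and 72.8% with lists shortened to equal length. Its difference from other regions (-5.48 points) was 1.40 when matched on fold enrichment, -0.816 when matched on pileup, -3.00 (-6.59 to 0.525) with reciprocal overlap and -10.03 against regions between genes within 100 kb; without single chromosomes it ran from -6.79 to -4.61. The share with no control region (23.5%) was 30.9% at fold enrichments from 5 up, 28.7% at −log10 q from 5 up, 19.95% beyond 50 kb, 27.5% beyond 200 kb, 32.6% with reciprocal overlap, 28.1% with summits within 100 bp and 33.2% with equal lists. Its difference (10.1 points) was 14.8 at fold enrichments from 5 up, 6.57 beyond 50 kb, 13.8 beyond 200 kb, 6.67 matched on fold enrichment and 9.33 to 11.5 without single chromosomes; it stayed positive in every alternative run. Members numbered 1502 beyond 50 kb and 339 beyond 200 kb. Density (1.14 per Mb) was 0.797 at −log10 q from 5 up, 0.867 at fold enrichments from 5 up, 1.77 beyond 50 kb, 0.703 beyond 200 kb and 1.02 outside lncRNA spans. The gap in median fold enrichment between regions called in both lists and control-only (1.49) was 0.997 beyond 200 kb.

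The difference between far and near members of the list labelled CTCF knockout (22.5 points) rests on 61 far members. No paired analysis was possible because control and knockout came as a single library each. The search for the CTCF motif around summits was not run, since no genome was used here. The lists give no depth, so whether a region missing from 1 list had reads under its threshold was not tested.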
